A study of Vitis vinifera with 8 samples.

Results

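Stilbene synthesis in grapevine is switched on by a small group of transcription factors, and 4 of their genes were followed here across the arrays of 1 experiment. They were chosen by gene identifier: MYB14 (VIT_07s0005g03340), MYB15 (VIT_05s0049g01020), WRKY24 (VIT_06s0023g00470) and WRKY03 (VIT_01s0010g03930). A probe carrying the identifier was found for 3 of the 4 genes, 1 probe each, among the 34369 probes of the array, and WRKY24 was not analysed here. The rule that lists them uses no signal of these arrays, although earlier results of these data were known when they were listed. Their expression was set beside that of the stilbene synthase genes numbered VIT_16s0100g00750 to VIT_16s0100g01200.

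The samples were young leaves of in vitro plantlets of Vitis vinifera cv Sultana, harvested 7 days after vacuum infiltration with Agrobacterium tumefaciens strain C58C1. In the OXNAC33 group (4 arrays) the bacteria carried 35S:VviNAC33, in which the CaMV 35S promoter, active in most plant cells, drives the NAC transcription factor gene VviNAC33. In the Control group (4 arrays) they carried the empty vector pK7WG2 with a non-coding sequence, so both groups were infiltrated and leaves without infiltration were not analysed here. Each array stood for 1 plant, read from a pool of 2 leaves. The labels give an age of 6 weeks, with 8 plants infiltrated for overexpression and 7 for the control, and per the methods the OXNAC33 plants hybridized were those with the highest transgene level. In transiently infiltrated leaves only some cells take up the construct, and in whole leaves a change in the number of expressing cells cannot be told apart from a change in transcript per cell.

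Stilbene synthases build resveratrol and related phytoalexins from p-coumaroyl-CoA and malonyl-CoA, the substrates that chalcone synthase uses for flavonoids. Grapevine carries an expanded family of stilbene synthase genes, most of them in tandem on chromosome 16 and a few on chromosome 10, and leaves induce them upon wounding, ultraviolet light or pathogen attack. MYB14 and MYB15 are R2R3-MYB factors that bind and activate stilbene synthase promoters. WRKY factors bind W-box elements, and WRKY03 is known to act together with MYB14 on these promoters, while WRKY24 can activate them alone.

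Levels are log2 values of the processed signal, scaled so that the 75th percentile of each array stands at 0, and 1 unit is a doubling. Since probes differ in binding, a level was compared between arrays and never between genes. Between 73.8% and 84.1% of probes were well above background on an array, and 26579 probes that were so on at least 4 of the 8 arrays were tested. All 5 leaf markers (chloroplast ATPC1, PSB27, LHCA5, LPA1 and APO3) were well above background on every array. At an unadjusted limma p of 0.05, 0 of the 5 passed, with differences between -0.70 and 0.35. LHCA5 passed with the replicate number as a block (p 0.0164) and with scan date as a block (p 0.0303). The study reports ATPC1 as repressed by VviNAC33 and LPA1 and APO3 as putative targets of it. Both regulators of the secondary wall in woody stem, MYB46 and MYB85, were also well above background on every array and differed by -0.42 and 0.45. With scan date as a block their unadjusted limma p was 0.0274 and 0.173. The arrays were scanned on 3 dates, with replicates 1 and 2 of both groups on scan date 1, replicate 3 on scan date 2 and replicate 4 on scan date 3. They lay on 5 slides. Replicate 4 of both groups shared 1 slide, while on scan dates 1 and 2 no slide held both groups. There a difference between groups cannot be told apart from one between slides.

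VviNAC33 (VIT_19s0027g00230) itself was read first, as a check of the labels. Its level was 1.15, 0.59, -0.13 and -1.14 on OXNAC33 replicates 1 to 4, against 0.14, -0.75, -1.15 and -1.37 on Control replicates 1 to 4. The arrays labelled OXNAC33 replicates 3 and 4 lay within the Control range, replicate 3 below Control replicate 1 alone and replicate 4 below Control replicates 1 and 2. The difference was 0.90 ± 0.52 (SE, n = 4 per group), with a limma p of 0.121, an adjusted p of 0.666 and an exact permutation p of 0.20. It was higher in OXNAC33 in all 4 replicate pairs, by 1.003, 1.34, 1.02 and 0.24, and the unadjusted limma p was 0.00751 with the replicate block and 0.0177 with scan date as a block (adjusted p 0.280 in both). Without OXNAC33 replicate 1 the difference was 0.56, and with slide as a random block it was 0.61 (unadjusted limma p 0.222). Per the methods the construct carried the VviNAC33 coding sequence, so a probe within that sequence would also read the transcript of the construct. Which part of the transcript the probe reads is not given in the sources used here, so whether it detects the transcript of the construct is not known.

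The 3 regulators were all expressed in both groups, being well above background on 8 of 8 arrays, and each was higher on average in OXNAC33. The log2 difference was 1.92 for MYB14 (3.79-fold), 1.72 for WRKY03 (3.29-fold) and 1.33 for MYB15 (2.52-fold). None passed the adjustment over all probes, where 0 of 26579 probes did (0.0%, the lowest adjusted p being 0.406). The study's methods call a gene at an unadjusted p under 0.05 where the change is 1.5 fold or more. By limma 2 of the 3 (MYB14 and WRKY03) were higher by that rule, against 2.42% of all tested probes, and 0 were lower, against 3.11%. By the methods' t-test 0 of the 3 passed, with an unadjusted p of 0.0658 for MYB14, 0.0616 for WRKY03 and 0.162 for MYB15, from a test of each probe without limma's shared spread. An unadjusted p under 0.05 in either direction was found for 7.77% of all probes. For each of the 3 genes the groups overlapped.

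MYB14 had levels of 0.27, -0.38, -2.40 and -0.36 on OXNAC33 replicates 1 to 4, against -0.97, -2.48, -3.93 and -3.19 on Control replicates 1 to 4. OXNAC33 replicates 1, 2 and 4 lay above all Control arrays, whereas OXNAC33 replicate 3 lay below Control replicate 1 and just above Control replicate 2. The mean was -0.72 ± 1.16 in OXNAC33 and -2.64 ± 1.26 in Control (SD, n = 4 each). The difference of 1.92 ± 0.74 (SE) gave a limma p of 0.0302 and an adjusted p of 0.636, and the two-sided exact permutation p was 0.0571, where 0.0286 is the smallest that 4 against 4 arrays allow. It was larger than the difference of 99.6% of the tested probes, which had a median of 0.04.

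WRKY03 had levels of 2.67, 1.70, -0.01 and 1.02 on OXNAC33 replicates 1 to 4, against 1.098, -0.82, -1.01 and -0.77 on Control replicates 1 to 4. Control replicate 1 stood apart from the other Control arrays and lay between OXNAC33 replicates 2 and 4. The mean was 1.34 ± 1.13 in OXNAC33 and -0.37 ± 0.99 in Control (SD, n = 4 each), a difference of 1.72 ± 0.65 (SE) with a limma p of 0.0282, an adjusted p of 0.636 and an exact permutation p of 0.0857. Of the tested probes, 99.4% had a smaller difference.

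MYB15 had levels of 3.25, 1.66, 0.17 and 0.94 on OXNAC33 replicates 1 to 4, against 1.47, 0.48, -0.90 and -0.37 on Control replicates 1 to 4. Again OXNAC33 replicate 3 was the lowest of its group and Control replicate 1 the highest of its own. The mean was 1.505 ± 1.31 in OXNAC33 and 0.17 ± 1.03 in Control (SD, n = 4 each). The difference of 1.33 ± 0.72 (SE) did not pass at an unadjusted limma p of 0.0997 (adjusted p 0.655, exact permutation p 0.171), although it exceeded that of 98.9% of tested probes.

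**Figure D1:**
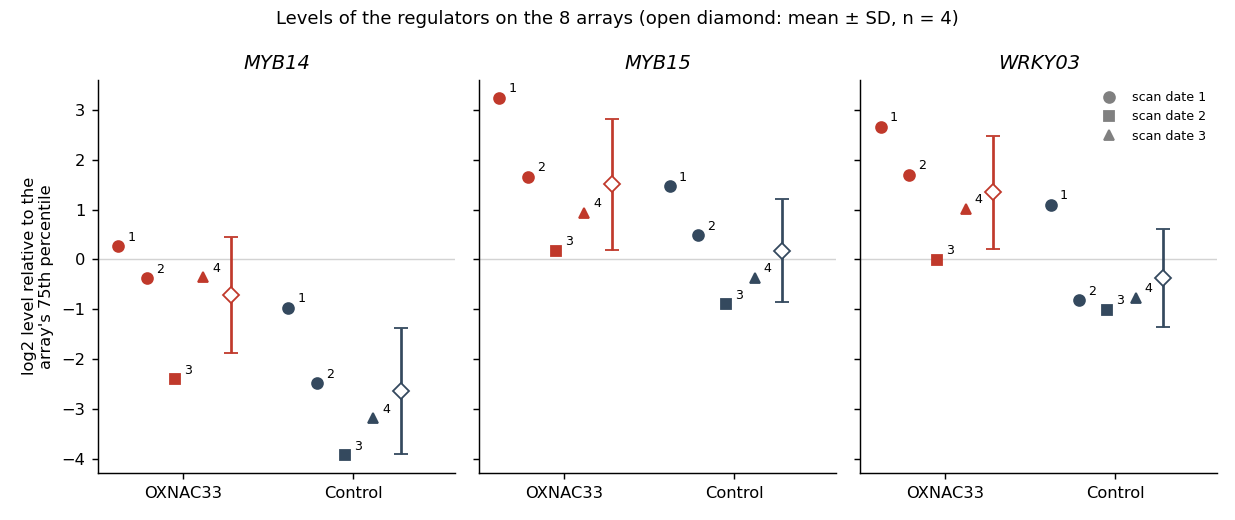
Levels of MYB14, MYB15 and WRKY03 on the 4 OXNAC33 and 4 Control arrays (y axis, log2, 75th percentile of each array at 0), with replicate numbers beside the points and the scan date as the symbol. Open diamonds are means with SD; in each gene OXNAC33 replicate 3 is the lowest OXNAC33 array and Control replicate 1 the highest Control array, so the groups overlap.

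Arrays of the same scan date or replicate number gave a difference in the same direction throughout. Within scan dates 1, 2 and 3 the difference was 1.67, 1.53 and 2.83 for MYB14, 2.04, 1.003 and 1.79 for WRKY03, and 1.48, 1.07 and 1.31 for MYB15. Within replicate numbers 1 to 4, MYB14 differed by 1.24, 2.10, 1.53 and 2.83, WRKY03 by 1.57, 2.52, 1.003 and 1.79, and MYB15 by 1.78, 1.18, 1.07 and 1.31. All 3 genes were thus higher in OXNAC33 for all 4 replicate numbers, as were 11.9% of all tested probes. Replicates 3 and 4 were also scan dates 2 and 3, so their values stand in both lists. Apart from replicate 4, the arrays compared lay on different slides. The labels do not say what a number marks, and for replicates 2, 3 and 4 an array with another number correlated more closely. With scan date as a block the unadjusted limma p was 0.00264 for MYB14, 0.00978 for WRKY03 and 0.0133 for MYB15. With the replicate block it was 0.000836, 0.000943 and 0.000422 in the same order, so that MYB15 passed the unadjusted threshold as well. By either block 3 of 3 regulators were higher by the methods' rule, against 3.92% of all probes (replicate) and 3.9% (scan date). Their adjusted p remained between 0.180 and 0.270 with these blocks. With slide as a random block the unadjusted limma p was 0.0115 for MYB14, 0.0411 for WRKY03 and 0.0980 for MYB15, which did not pass. The differences in that fit were 2.30, 1.69 and 1.30 in the same order. Only the slide of replicate 4 held both groups, so that fit gives more weight to this single pair of arrays.

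**Figure D2:**
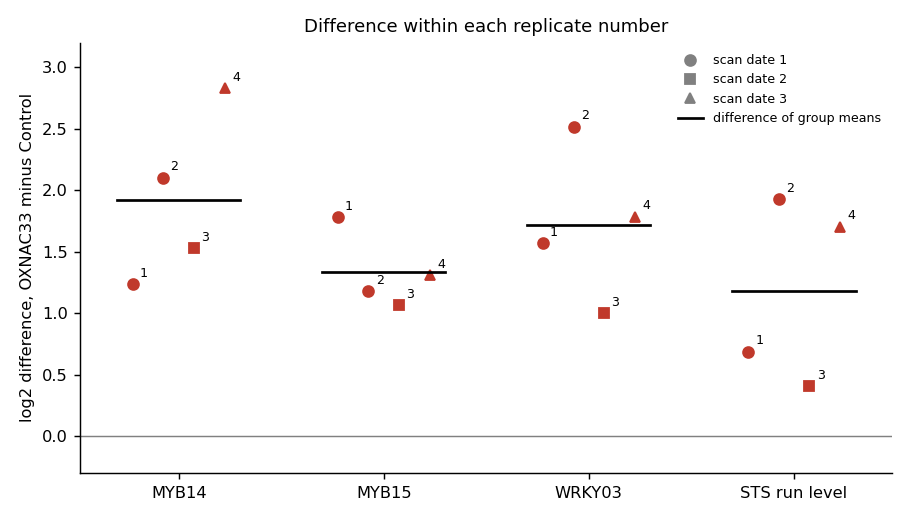
Log2 difference, OXNAC33 minus Control, within each replicate number (points, numbered, with the scan date as the symbol) for the 3 regulators and for the stilbene synthase (STS) run level; the black line is the difference of group means. Every point lies above 0, from 0.40 for the run level of replicate 3 to 2.83 for MYB14 of replicate 4.

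Single arrays decided whether the unadjusted threshold was passed. When each array was left out in turn, the MYB14 difference ranged from 1.495 (without Control replicate 3) to 2.48 (without OXNAC33 replicate 3), and its unadjusted limma p from 0.00565 to 0.0827. MYB14 stayed under 0.05 only without OXNAC33 replicate 3 or Control replicate 1. WRKY03 ranged from 1.28 (without OXNAC33 replicate 1) to 2.21 (without Control replicate 1), and MYB15 from 0.75 (without OXNAC33 replicate 1) to 1.78 (without OXNAC33 replicate 3). Without the array labelled OXNAC33 replicate 3, whose VviNAC33 level was in the Control range, the differences were 2.48 for MYB14 (unadjusted limma p 0.00565), 2.17 for WRKY03 (p 0.0077) and 1.78 for MYB15 (p 0.0374). Without the array labelled OXNAC33 replicate 4, also in that range, they were 1.80 for MYB14 (unadjusted limma p 0.0675), 1.83 for WRKY03 (p 0.0411) and 1.52 for MYB15 (p 0.0998).

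The stilbene synthase run, of the gene family that these factors are known to act on, held 39 probes. Of these 38 were tested and VIT_16s0100g00970 was not well above background on any array. Which of the run's genes the factors bind was not tested here. Of the 38, 37 had a higher mean in OXNAC33, against 54.7% of all tested probes, and the median difference was 1.22 (from -0.00 to 1.80), against 0.04 over all probes. At least 1.5 fold higher were 34 of 38, against 6.57% of all probes. In all 4 replicate pairs 34 of 38 were higher, against 11.9% of all probes. By the methods' rule with limma 2 of 38 were higher, against 2.42% of all probes, and 0 lower, against 3.11%. The groups overlapped for all 38, while 2.35% of all probes were higher without overlap. Paralogs in the run are nearly identical in sequence, so the probes can read one another's transcripts and are not independent.

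VIT_16s0100g01130, VIT_16s0100g00840 and VIT_16s0100g00800 were the run probes with the strongest signal. VIT_16s0100g01130 had levels of 5.60, 5.35, 3.23 and 4.86 on OXNAC33 replicates 1 to 4, against 4.90, 3.49, 2.80 and 3.01 on Control replicates 1 to 4, a difference of 1.21 ± 0.62 (SE, limma p 0.0844). The pattern over arrays was that of the regulators, with OXNAC33 replicate 3 among the Control arrays and Control replicate 1 among the OXNAC33 arrays. VIT_16s0100g00840 and VIT_16s0100g00800 differed by 0.87 ± 0.43 and 0.85 ± 0.45 (SE, limma p 0.0774 and 0.0931), and by 0.58 and 0.55 with slide as a random block.

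The run probes with the largest difference were VIT_16s0100g01070 (1.80 ± 0.82, SE, limma p 0.0587), VIT_16s0100g01200 (1.74 ± 0.77, p 0.0527) and VIT_16s0100g00770 (1.71 ± 0.86, p 0.0809), the last of which differed by 0.80 with normexp background correction. VIT_16s0100g01070 stood at 3.27, 2.19, 0.22 and 3.21 on OXNAC33 replicates 1 to 4, against 2.28, 0.27, -0.43 and -0.40 on Control replicates 1 to 4. The 2 probes under an unadjusted p of 0.05, named after their values were seen, were VIT_16s0100g00910 (1.65 ± 0.57, limma p 0.0201, exact permutation p 0.0571) and VIT_16s0100g01150 (1.54 ± 0.67, limma p 0.0487, exact permutation p 0.0857). Their adjusted p was 0.636 each.

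The number of run probes at that threshold depended on the block and on single arrays. It was 31 of 38 with the replicate block (against 3.92% of all tested probes) and 23 with scan date as a block (against 3.9%). With slide as a random block, which gives more weight to replicate 4, it was 16, against 690 of all 26579 probes. It was 29 when OXNAC33 replicate 3 was left out, 30 when Control replicate 1 was, and 0 or 1 when any one of the other 6 arrays was. Over all probes the counts were 1280, 697 and 328 to 1095 in the same order, against 643 with all arrays. In every case 0 run probes were lower. Within scan dates 1, 2 and 3 the median difference was 1.31, 0.40 and 1.72, and it was 1.72 with OXNAC33 replicate 3 left out and 1.17 with OXNAC33 replicate 4 left out.

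**Figure D3:**
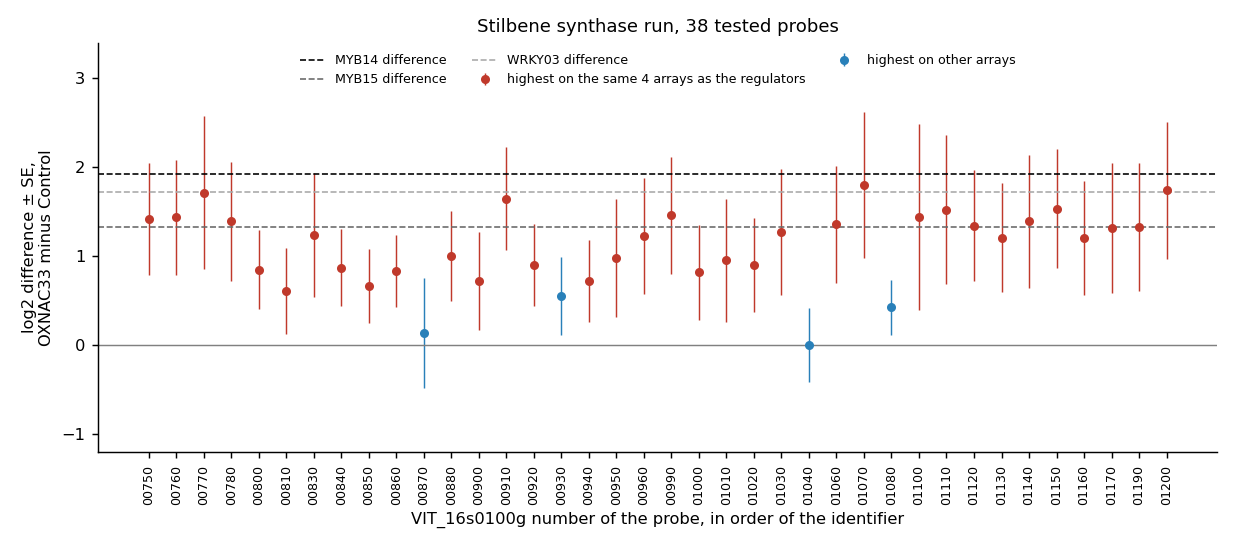
Log2 difference, OXNAC33 minus Control, with its SE from limma (y axis) for the 38 tested probes of the stilbene synthase run in order of their identifier (x axis). Red probes, 34 of 38, had the same 4 highest arrays as the regulators, and dashed lines mark the differences of MYB14 (1.92), WRKY03 (1.72) and MYB15 (1.33).

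To set the regulators beside the run on each array, a run level was taken as the median, over the 38 probes, of the deviation from each probe's own mean. It was 1.46, 1.05, -0.87 and 0.58 on OXNAC33 replicates 1 to 4, against 0.77, -0.87, -1.27 and -1.12 on Control replicates 1 to 4. The arrays fell into separate sets: OXNAC33 replicates 1, 2 and 4 and Control replicate 1 lay at 0.58 or above, the other 4 arrays at -0.87 or below, and this gap of 1.45 took 53.0% of the whole range. A pooled correlation between a regulator and the run level was therefore not given, and 4 arrays per set are too few for one within them, so the relation cannot be tested with these arrays.

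The same 4 arrays were the highest for MYB14, for MYB15 and for WRKY03. Of the tested run probes 34 of 38 (89.5%) had these 4 highest arrays, against 1.55% of the 26466 probes compared. The exceptions were VIT_16s0100g00870, VIT_16s0100g00930, VIT_16s0100g01040 and VIT_16s0100g01080. For MYB14 the gap between the 4th and the 5th highest array was 1.43 and for WRKY03 it was 1.03, whereas MYB15 gave 0.45 at that place and its widest gap, 1.58, lay below OXNAC33 replicate 1 alone. VviNAC33 had another set of highest arrays, with the array labelled OXNAC33 replicate 3 in place of the array labelled OXNAC33 replicate 4.

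Within each group the order of arrays was nearly shared too. Among OXNAC33 arrays, replicate 1 was the highest and replicate 3 the lowest for the run level and for each regulator, with replicates 2 and 4 between them. Among Control arrays replicate 1 was the highest and replicate 3 the lowest for all 4 measures. The neighbours that changed place were close: OXNAC33 replicates 2 and 4 stood at -0.38 and -0.36 for MYB14, and Control replicates 2 and 4 at -0.82 and -0.77 for WRKY03. Control replicate 1, the Control array with high regulators and stilbene synthases, also had the highest 75th percentile of signal before scaling, 2768 against 1379 to 2250 on the other 7 arrays, and 84.0% of its probes were well above background. Control replicate 2, with the next highest percentile (2250) and 84.1% well above background, was among the lower 4 arrays for the run level and each regulator. The part of signal strength in these levels was not tested.

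**Figure D4:**
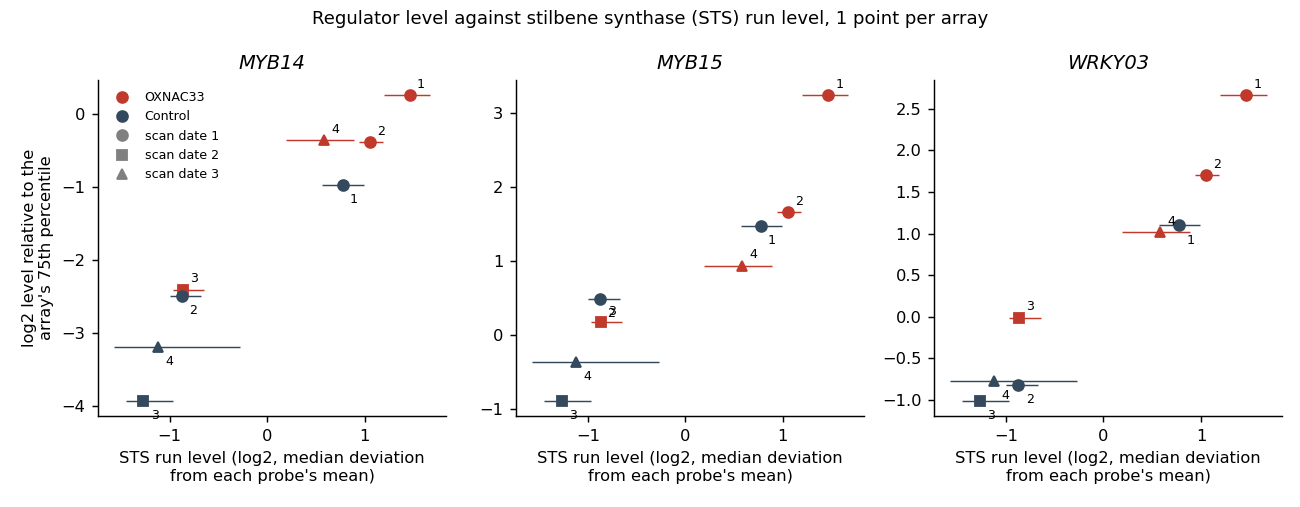
Level of MYB14, MYB15 and WRKY03 (y axis, log2, 75th percentile of each array at 0) against the stilbene synthase run level (x axis, log2, with the quartiles over 38 probes as bars), 1 point for each of the 4 OXNAC33 and 4 Control arrays, numbered by replicate. OXNAC33 replicates 1, 2 and 4 and Control replicate 1 lie at a run level of 0.58 or above and the other 4 arrays at -0.87 or below.

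Likeness of pattern was ranked by Pearson r over the 8 arrays for 26465 other probes, as a description, since all probes share the same arrays and a high r mostly says that a probe separates the same arrays. Of the 264 probes (1.0%) most like each regulator, 28 of the 38 run probes were among those of MYB14, 32 among those of WRKY03 and 10 among those of MYB15. WRKY03 ranked 31 and MYB15 ranked 74 in likeness to MYB14, and WRKY03 ranked 104 in likeness to MYB15. The 5 probes most like MYB14 were VIT_16s0013g01590 (r = 0.982), the run members VIT_16s0100g00770 and VIT_16s0100g01120 (0.980 each), VIT_04s0023g01320 (0.979) and VIT_07s0031g02400, which the study annotates as an amino acid permease (0.977). Those most like WRKY03 reached from 0.978 to 0.988, led by VIT_18s0001g04640 and VIT_10s0003g00980, and those most like MYB15 reached from 0.981 to 0.989, led by VIT_00s0304g00030 and VIT_13s0106g00550. Neither of these lists of 5 held a run member, and genomic positions and names were not given for most of these identifiers in the sources used here.

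Outside the run, both tested stilbene synthases of chromosome 10 were higher in OXNAC33 on average, VIT_10s0042g00860 by 0.97 ± 0.52 and STS3 (VIT_10s0042g00890) by 0.57 ± 0.37 (SE, limma p 0.0968 and 0.158), and the third with a probe, VIT_10s0042g00850, was well above background on 3 arrays and not tested. On average, the tested enzymes around stilbene synthase did not share the direction. The 7 tested genes were 1 phenylalanine ammonia-lyase and 4-coumarate:CoA ligases for the steps before it, the resveratrol methyltransferase ROMT and the competing chalcone synthases. Of these 1 was higher and 6 lower on average, while 54.7% of all tested probes were higher. At an unadjusted p under 0.05 there were 0, against 7.77% of all probes. The median difference was -0.67, taken over genes of different steps. Within scan dates 1, 2 and 3 the median difference was -1.03, 0.57 and -0.28, so the direction changed between dates. CHS2 (VIT_14s0068g00920), a chalcone synthase, differed by -1.04 ± 0.72 (SE, limma p 0.183), and ROMT (VIT_12s0028g01880), which makes pterostilbene from resveratrol, by -0.91 ± 0.48 (p 0.0960). Without OXNAC33 replicate 1 CHS2 differed by -0.40, and without Control replicate 4 ROMT differed by -0.48. With slide as a random block ROMT differed by -1.44 (unadjusted limma p 0.0215), a fit that gives more weight to replicate 4, where ROMT differed by -2.37. CHS2 stood at -2.45, -0.83, 0.69 and 0.51 on OXNAC33 replicates 1 to 4, against 1.18, -0.41, 0.11 and 1.20 on Control replicates 1 to 4, and its lowest array, OXNAC33 replicate 1, was the highest array of all 3 regulators.

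Of 11 other WRKY genes, all tested, 7 were higher and 4 lower on average (median difference 0.31), while 54.7% of all tested probes were higher. At an unadjusted p under 0.05 there was 1 in each direction, against 7.77% of all probes in either direction. WRKY10 had the same 4 highest arrays as the regulators, as did 1.55% of the probes compared. WRKY54 had them too, but it lacked a value on Control replicate 4 and was not among the probes compared. WRKY52 (VIT_17s0000g01280) had levels of 1.61, -0.18, -1.90 and -0.69 on OXNAC33 replicates 1 to 4, against -2.26, -3.98, -3.21 and -1.98 on Control replicates 1 to 4. All OXNAC33 arrays lay above all Control arrays, as for 2.35% of tested probes, and the difference was 2.57 ± 0.74 (SE, 5.92-fold, limma p 0.00803, adjusted p 0.636, exact permutation p 0.0286, the smallest possible). Within scan dates 1, 2 and 3 it was 3.83, 1.31 and 1.28, and with slide as a random block it was 1.89 (unadjusted limma p 0.0502). WRKY41 (VIT_13s0067g03140) had a difference of -0.80 ± 0.21 (SE, limma p 0.00546, adjusted p 0.636), with OXNAC33 levels between -3.04 and -2.13 and Control levels between -1.87 and -1.54.

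Of 26 other MYB genes 22 were tested, 7 higher and 15 lower on average (median difference -0.27), while 54.7% of all tested probes were higher. At an unadjusted p under 0.05 there was 1 in each direction, against 7.77% of all probes in either direction. The same 4 highest arrays as the regulators were found for 0 of them, against 1.55% of the probes compared. MYB62 (VIT_17s0000g03560) was higher by 1.24 ± 0.41 (SE, limma p 0.0165, adjusted p 0.636; 0.81 with normexp, unadjusted p 0.0534), with OXNAC33 levels of -1.13, -2.27, -2.83 and -2.93 and Control levels of -3.31, -3.04, -3.91 and -3.85 on replicates 1 to 4. Its groups did not overlap, as for 2.35% of tested probes. MYB82 (VIT_11s0016g05660) had a difference of -0.74 ± 0.26 (SE, limma p 0.0223, adjusted p 0.636), but only 1 OXNAC33 array and 3 Control arrays read it well above background, and its unadjusted p was 0.0507 with the replicate block. MYBPA1 (VIT_15s0046g00170), an activator of proanthocyanidin synthesis, differed by -1.07 ± 0.87 (SE, limma p 0.254) through OXNAC33 replicate 1, without which the difference was -0.07.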

How the data were processed

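Leaf RNA of 4 OXNAC33 and 4 Control plants was hybridized with 1 dye to custom grapevine arrays. Per the file headers, the authors obtained the deposited processed intensity, on a linear scale, with Agilent Feature Extraction 10.5.1.1, which subtracted the background and removed spatial trends without scaling between arrays. Marks for spots well above background, outlying or saturated (0 spots) were used as deposited, and 140 outlying spots were left out. The authors also deposited a table of intensity for 24631 probes, equal to the same signal times 1 factor per array, which was used as an alternative only.

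Log2 intensity was scaled by bringing the 75th percentile of each array to 0. Groups were compared with limma 3.58.1 in R 4.3.3, group being the only term, with two-sided p adjusted by Benjamini-Hochberg over 26579 probes. Exact permutation tests went through all 70 splits of the arrays into 4 against 4, in Python 3.11.15. The limma step was tested on simulated data. The number of arrays limits the precision. Groups and replicate numbers came from the sample titles, scan dates and slides from the file headers. Deviations from the group mean of same-numbered arrays correlated at 0.490, 0.253, 0.496 and 0.102 for replicates 1 to 4, and since each exceeded 0.1 the numbers were taken to pair the arrays; the labels do not say what a number marks. Replicates were separate plants, but for replicates 2, 3 and 4 an array with another number correlated more closely.

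Alternatives were normexp background correction, quantile normalization, other filters, a floor for values not well above background, scan date, slide or replicate as a block, the methods' t-test, the authors' value table and leaving out each array. The genes named were the regulators, the 3 run probes with the strongest signal and the 3 with the largest difference, and from each list the members under an unadjusted p of 0.05 and the 2 with the largest difference, and the 5 probes most like each regulator. Members and lists, drawn from genes that the study names, were chosen with earlier results of these data known. The reference table of symbols held 0 of the identifiers, so sequences and positions were not used here.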

Additional observations from a re-analysis of the deposited data

Results flagged for a closer look

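In 2 of 54 groups of 4 arrays examined, 1 array stood apart from the rest by Dixon's criterion, and about 1 in 20 groups, or 2.7 of 54, would do so by chance. For WRKY03, Control replicate 1 was the highest Control array at 1.098, against -1.01 to -0.77 on the other Control arrays, and the gap took a share of 0.884 of the group's range. The same array was the highest Control array for MYB14 and MYB15, where the gap did not reach the critical value. For MYBPA1, OXNAC33 replicate 1 was the lowest at -6.89, against -3.26 to -2.63 on the other OXNAC33 arrays, with a share of 0.852, and it was not well above background there.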

How the results depend on the processing

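The 3 regulators were higher in OXNAC33 under all 18 alternatives, and none passed the adjusted threshold under any of them. The other filters, the floor, the scan date and replicate blocks and the t-test could change their p but not the 3 differences. The authors' value table rescales the same signal. Under these alternatives the shared direction was fixed in advance and adds no evidence. The MYB14 difference lay between 1.495 and 2.48, WRKY03 between 1.28 and 2.21 and MYB15 between 0.75 and 1.78, with an unadjusted p under 0.05 in 11, 12 and 4 of the 18. The lowest adjusted p, 0.180, came from MYB15 with the replicate block. The median difference of the run lay between 0.92 and 1.72, in both cases with 1 array left out.

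Counts moved more. Probes higher at the threshold of the methods, 643 as reported, numbered 294 with normexp, 1037 with scan date as a block, 1043 with the replicate block and 415 with the methods' t-test; probes lower, 826 as reported, numbered 1366, 1311 and 511 under the last 3. Leaving out 1 array gave 328 (without OXNAC33 replicate 1) to 1280 (without OXNAC33 replicate 3) higher and 523 (without Control replicate 2) to 1356 (without OXNAC33 replicate 4) lower. Adjusted calls, 0 as reported with 2064 probes at an unadjusted p under 0.05, numbered 2 with the replicate block and 0 to 2 when 1 array was left out. Run probes higher, 2 as reported, numbered 5 with normexp, 4 with the filter on all 8 arrays, 23 with scan date as a block, 16 with slide as a random block, 31 with the replicate block, 1 with the methods' t-test and 0 to 30 with 1 array left out. Over all probes, the number higher was 575 with the filter on all 8 arrays and 690 with slide as a random block. The causes were not tested. By the methods' t-test MYB14 and WRKY03 had an unadjusted p of 0.0658 and 0.0616 (limma 0.0302 and 0.0282). With the replicate block the adjusted p of every regulator and other named gene stayed above 0.05. Of genes other than run members, it brought MYB15, VviNAC33, VIT_10s0042g00860, WRKY10, WRKY54, MYB61, MYB68 and the leaf marker LHCA5 under an unadjusted p of 0.05 (0.0164 for LHCA5) and took MYB82 above it; otherwise it moved no unadjusted call in the gene lists.

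The planned correlations of regulators with the run level were not run, because the arrays fell into separate sets. In their place, after seeing the data, it was counted for how many of the 3 regulators the arrays above the widest gap in the run level were also the highest. The count was 3 under all 13 alternatives, including deviations from group means and from scan date means, where the widest gap lay after 7 and 6 arrays. These counts reuse the same arrays, and with the gap after 7 arrays a match says only that the lowest array was shared.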
